A study of Mus musculus with 6 samples.

Results

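The genes described here encode CD300 receptors, receptors of the SLAM family, and EAT-2 (gene Sh2d1b1), an adaptor that SLAM receptors recruit. They were named as a list of 9 symbols, and 8 of them (Cd300a, Cd300lb, Cd300ld, Cd300lf, Cd300lg, Sh2d1b1, Cd84 and Slamf7) were matched to a row of the value table, out of 19938 genes measured. The ninth, Cd244, is annotated there as Cd244a and was dropped by the match on symbols. Its values are given beside the others but are not counted with them. Where a gene has several rows the one with the highest mean over the 6 arrays is kept, and each of these genes had 1 row. The list was selected on its family and with the measured response to concanavalin A already known, and Sh2d1b1 and Cd300lb rank 3 and 7 among all genes ordered from the largest fall. The differences of the listed genes are therefore descriptions, and no p-value is given for them.

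CD300 receptors sit on myeloid cells and bind lipids such as those exposed on dying cells. Some carry inhibitory tyrosine motifs in the tail, and others have short tails and signal through partner adaptors that hold activating motifs. SLAM receptors are mostly self-binding immune receptors, and small adaptors with a single SH2 domain (SAP and the EAT-2 proteins) dock on their tails and turn engagement into activating signals.

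The cells were CD11b+Gr-1+ cells, labelled as myeloid-derived suppressor cells and sorted from livers of C57BL/6 mice bearing EL4 tumours, a transplanted mouse T cell lymphoma. The 3 Con A arrays come from mice injected with Type IV concanavalin A (Con A), a lectin from jack bean that stimulates T cells and injures the liver, and the 3 PBS arrays from mice injected with PBS, which the titles call untreated. Cells were taken after 3 hours. The dose of Con A reads 12.5 mg/kg in one field and 12.5 ug/kg in another, and the sources give neither age nor sex, nor whether each array holds 1 mouse, so the spread between arrays may be partly technical.

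Values are log2 expression values of an Affymetrix gene array, with array medians between 7.05 and 7.08 and no detection calls. Markers of granulocytes (12 genes, Ly6g, S100a8 and S100a9 among them) averaged 13.38 to 13.41 on the Con A arrays and 13.38 to 13.51 on the PBS arrays. Of these, 1 was called: Mmp9 fell by 0.58 (limma adjusted p = 0.00401). The 12 had means of 12.7 to 13.9, close to the upper end of the range, where differences are compressed. T cell and EL4 markers (8 genes) averaged 6.75 to 6.86 on the Con A arrays and 6.78 to 6.86 on the PBS arrays, below the array medians. Markers of monocytes (10 genes) averaged 9.73 to 10.19 on the Con A arrays, below 10.77 to 11.13 on the PBS arrays. All 10 were lower, with a median difference of -0.74. Of these, 4 passed the threshold of limma adjusted p under 0.05 (Ccr2, Cx3cr1, F13a1 and Fn1), where 7.22% of all genes were called lower. Kupffer cell markers (9 genes) stood at 7.66, 9.42 and 8.26 on Con A arrays 1, 2 and 3, and at 7.64 to 8.10 on the PBS arrays. Eosinophil, basophil and mast cell markers (10 genes) averaged 8.62 to 9.55 on the Con A arrays and 7.865 to 8.46 on the PBS arrays. All 10 were higher, with a median difference of 0.95, and 5 of them passed the threshold, where 4.59% of all genes were called higher. Hepatocyte markers (4 genes) averaged 7.30, 8.41 and 7.28 on Con A arrays 1, 2 and 3, and 7.14 to 7.30 on the PBS arrays. Their part in the results below was not tested.

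After Con A, the listed genes split by direction. Sh2d1b1, Cd300lb, Cd300ld, Cd300a and Cd84 were lower, by 1.49-fold to 4.49-fold, and Cd300lf was 1.66-fold higher. With the threshold of adjusted p under 0.05 in the limma fit over all genes, 5 of the 8 genes fell and 1 rose, where 11.8% of all genes were called, 7.22% lower and 4.59% higher. Their median difference was -0.66 on the log2 scale, against 0.02 over all genes. The Con A arrays lay wholly below the PBS arrays for 6 of the 8, a pattern seen in 15.6% of all genes, and wholly above them for 1, a pattern seen in 14.4% (29.9% of all genes did not overlap in one direction or the other). Because the list was drawn up with this contrast known, nothing is read from these counts. In sorted cells measured in bulk, fewer cells of a type and less RNA per cell cannot be told apart.

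**Figure D1:**
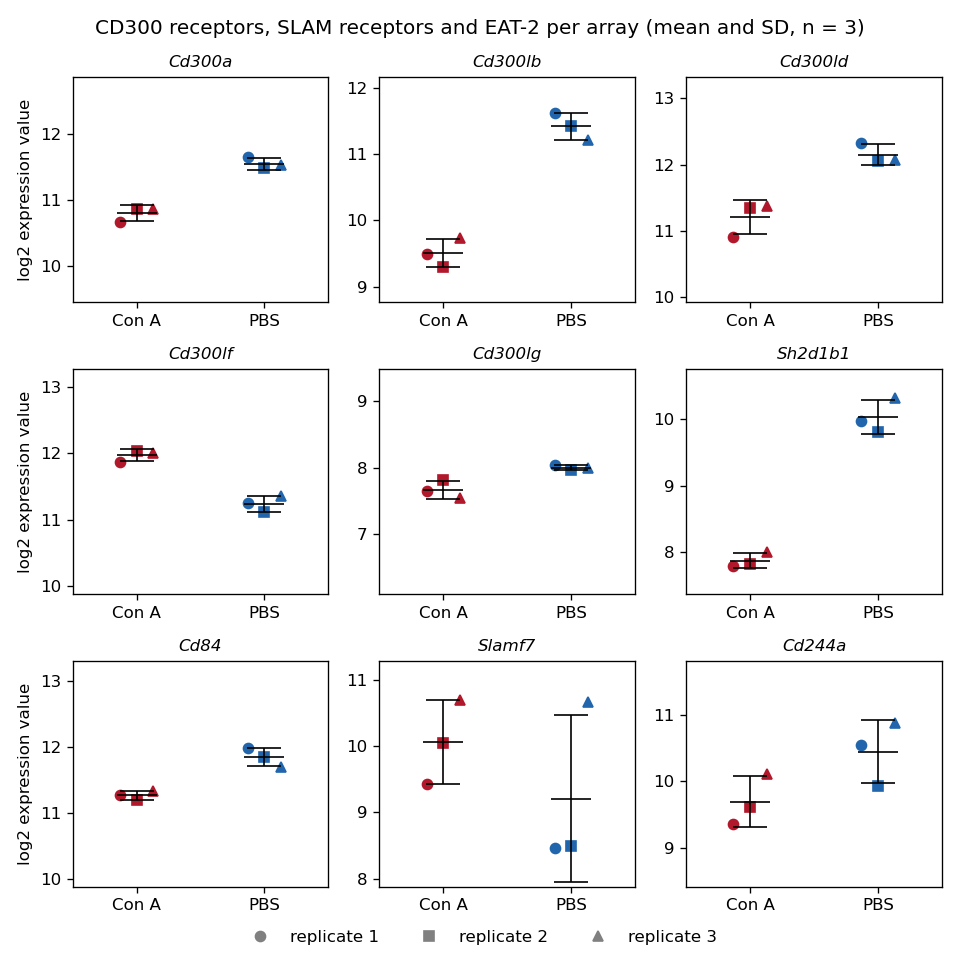
Log2 expression values of the 8 listed genes and Cd244a on each array, with Con A left of PBS in each panel and the same span of the log2 axis in every panel. Symbols mark replicate numbers, and bars show mean and SD of 3 arrays. Sh2d1b1 and Cd300lb have the widest separation, Cd300lf is higher after Con A, and Slamf7 has 1 PBS array level with the highest Con A array.

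The promoter sequences of 3 of these genes are shown because they moved most, or against the others. Sh2d1b1 and Cd300lb had the largest falls on the list, and Cd300lf, in the same chromosome 11 gene cluster as Cd300lb, had the 1 rise past the threshold. Each run holds the 250 bases before a RefSeq transcription start (GRCm38.p6), written 5′ to 3′ on the gene's strand, with matches to the searched motifs in capitals.
Sh2d1b1 promoter, chr1:170277068-170277317, + strand: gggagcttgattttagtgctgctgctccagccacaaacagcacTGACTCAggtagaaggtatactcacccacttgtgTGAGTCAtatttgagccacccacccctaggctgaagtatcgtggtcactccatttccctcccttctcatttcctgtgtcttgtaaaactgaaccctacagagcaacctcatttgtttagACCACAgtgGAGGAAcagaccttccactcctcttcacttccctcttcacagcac
Cd300lb promoter, chr11:114934372-114934621, - strand: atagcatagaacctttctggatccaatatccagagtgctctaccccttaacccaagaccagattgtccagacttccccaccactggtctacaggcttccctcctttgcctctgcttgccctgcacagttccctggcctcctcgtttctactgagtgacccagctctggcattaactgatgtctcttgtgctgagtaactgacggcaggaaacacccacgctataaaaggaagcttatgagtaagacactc
Cd300lf promoter, chr11:115133993-115134242, - strand: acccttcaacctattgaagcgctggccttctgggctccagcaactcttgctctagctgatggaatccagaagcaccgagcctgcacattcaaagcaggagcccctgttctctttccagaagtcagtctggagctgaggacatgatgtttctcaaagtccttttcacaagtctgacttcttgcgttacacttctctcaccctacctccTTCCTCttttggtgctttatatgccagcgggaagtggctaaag

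Of the 8 listed genes and Cd244a, Cd300lg had no entry in the promoter table, so the 8 promoters counted here include that of Cd244a. The 4 motifs were searched on both strands over the same 250 bases of 27025 promoters. GAGGAA, the core bound by the myeloid factor PU.1 and other ETS proteins, occurred in 4 of the 8 (Cd300a, Cd300ld, Cd300lf and Sh2d1b1) and in 23.1% of all promoters. The AP-1 motif TGANTCA was in 4 (Sh2d1b1, Cd84, Slamf7 and Cd244a), against 6.87% of all promoters, and Sh2d1b1 held 2 copies. A motif that reads the same on both strands was counted once, and no matches overlapped. The RUNX motif TGTGGT was in 2 (Sh2d1b1 and Cd84), against 14.2%. The STAT motif TTCNNNGAA had 0 matches among the 8, against 7.11% of all promoters. GAGGAA was the 1 of the 4 found in Cd300lf, which rose, and in the Cd300lb window none of the 4 was found. A match is a string of letters and shows no binding.

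Sh2d1b1 encodes EAT-2, which binds phosphorylated tails of SLAM receptors in natural killer and myeloid cells. Its log2 value was 7.794, 7.811 and 8.004 on the Con A arrays, against 9.98, 9.81 and 10.32 on the PBS arrays. Every Con A array lay at least 1.80 below every PBS array, the widest gap among the listed genes. The difference was -2.17 ± 0.14 (SE), or 4.49-fold lower (7.87 ± 0.12 after Con A and 10.04 ± 0.26 after PBS, SD, n = 3 each). The Con A level lay within 1 log2 unit of the array medians, where this summary compresses differences. The 3 other genes with profiles most like that of Sh2d1b1 over the 6 arrays were Calhm2, Dvl2 and Fgd2 (Pearson r = 0.996 for each). This likeness describes 2 groups that stand apart, and 510 genes had r above 0.95.

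The other SAP family adaptors did not pass the threshold. Sh2d1b2, the neighbouring gene of a second EAT-2-type adaptor in mouse, differed by -0.33 (95% interval -0.78 to 0.11, limma adjusted p = 0.347), and Sh2d1a, which encodes SAP, by -0.02 (-0.32 to 0.28, limma adjusted p = 0.951). Both stood below the array medians, at means of 6.26 ± 0.25 after Con A and 6.60 ± 0.35 after PBS for Sh2d1b2, and 5.70 ± 0.26 after Con A and 5.71 ± 0.04 after PBS for Sh2d1a (SD, n = 3 each).

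Among the activating CD300 receptors, Cd300lb encodes one that pairs with the adaptor DAP12. Its log2 value was 9.49, 9.30 and 9.74 on the Con A arrays, against 11.63, 11.43 and 11.21 on the PBS arrays. The groups were 1.48 apart at their nearest arrays. The difference was -1.91 ± 0.14 (SE), or 3.76-fold lower. Cd300ld, which encodes a short-tailed activating receptor of mouse neutrophils, had 10.91, 11.34 and 11.38 on the Con A arrays, against 12.33, 12.06 and 12.06 on the PBS arrays. It fell by 0.94 ± 0.14 (SE), with Con A replicate 1 the lowest array.

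The inhibitory receptors of the cluster went opposite ways. Cd300a, which encodes an inhibitory receptor for phosphatidylserine, had 10.66, 10.86 and 10.87 on the Con A arrays, against 11.65, 11.47 and 11.52 on the PBS arrays, so the groups did not overlap. It fell by 0.75 ± 0.09 (SE). Cd300lf, which encodes an inhibitory receptor that binds ceramide and serves murine norovirus as its entry receptor, had 11.87, 12.03 and 12.01 on the Con A arrays, against 11.24, 11.11 and 11.36 on the PBS arrays. All 3 Con A arrays were above all 3 PBS arrays, by at least 0.51, and the gene rose by 0.73 ± 0.09 (SE). In the RefSeq annotation Cd300lf lies within the span of Rab37, a small GTPase gene, which rose by 0.48 ± 0.11 (SE, limma adjusted p = 0.0344). The Rab37 call was lost in 5 of 6 fits with 1 array left out (limma adjusted p up to 0.116, PBS replicate 2 being the exception) and with median centring (0.0546). Whether the 2 rows share signal was not tested.

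Cd300lg encodes nepmucin, a receptor of endothelial cells that lies outside the cluster. Its log2 value was 7.64, 7.82 and 7.54 on the Con A arrays, against 8.036, 7.959 and 7.996 on the PBS arrays. The groups did not overlap but were only 0.14 apart, and the difference of -0.33 (95% interval -0.54 to -0.12) did not pass the threshold. It passed without Con A replicate 2, with a difference of -0.41. Endothelial markers (7 genes) averaged 6.996 to 7.41 on the Con A arrays and 6.95 to 7.14 on the PBS arrays. Of these Pecam1 rose by 1.55 and Lyve1 fell by 1.33. The Lyve1 call was lost without Con A replicate 2 and without PBS replicate 1 (limma adjusted p = 0.0558 and 0.0598). Their part in the Cd300lg values was not tested.

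The CD300 genes outside the list show whether the neighbours moved the same way. RefSeq places 11 CD300 genes in the chromosome 11 cluster, in the order Cd300a, Cd300lb, Cd300c, Cd300ld, Cd300c2, Cd300ld4, Cd300ld2, Cd300ld5, Cd300ld3, Cd300e and Cd300lf, and 7 were tested alone. Of these 7, 6 fell and 1, Cd300lf at the end of the row, rose. Cd300a, Cd300lb, Cd300ld and Cd300lf are on the list drawn up with this contrast known, so nothing is read from this count. The 3 outside the list were Cd300c2, which encodes an activating partner of DAP12, Cd300c and Cd300e. All 3 of these fell, in a table where 7.22% of genes did. These 3 were also chosen with earlier results of these data known, so nothing is read from their count either.

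Cd300c2 had 8.73, 9.29 and 9.34 on the Con A arrays, against 10.25, 10.07 and 10.17 on the PBS arrays. It fell by 1.04 ± 0.16 (SE, limma adjusted p = 0.00726), while Cd300c fell by 0.74 ± 0.09 (SE, limma adjusted p = 0.00261) and Cd300e by 0.70 ± 0.08 (SE, limma adjusted p = 0.00239). None of the 3 had overlapping groups. Cd300c stood at 7.14, 7.42 and 7.20 on the Con A arrays, close to the array medians, where this summary compresses differences. Both rows shared by Cd300ld3, Cd300ld4 and Cd300ld5 cannot be given to 1 gene and were not tested, and they differed by -0.59 and -0.57, again with Con A replicate 1 lowest. CD300 genes are alike in sequence, and how far their rows share signal was not tested. Cd300a, Cd300c, Cd300ld, Cd300c2 and Cd300e each had their lowest value on Con A replicate 1, the array with the lowest monocyte marker mean, at 9.73, while Cd300lb was lowest on Con A replicate 2. The part of monocyte content in these falls was not tested.

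**Figure D2:**
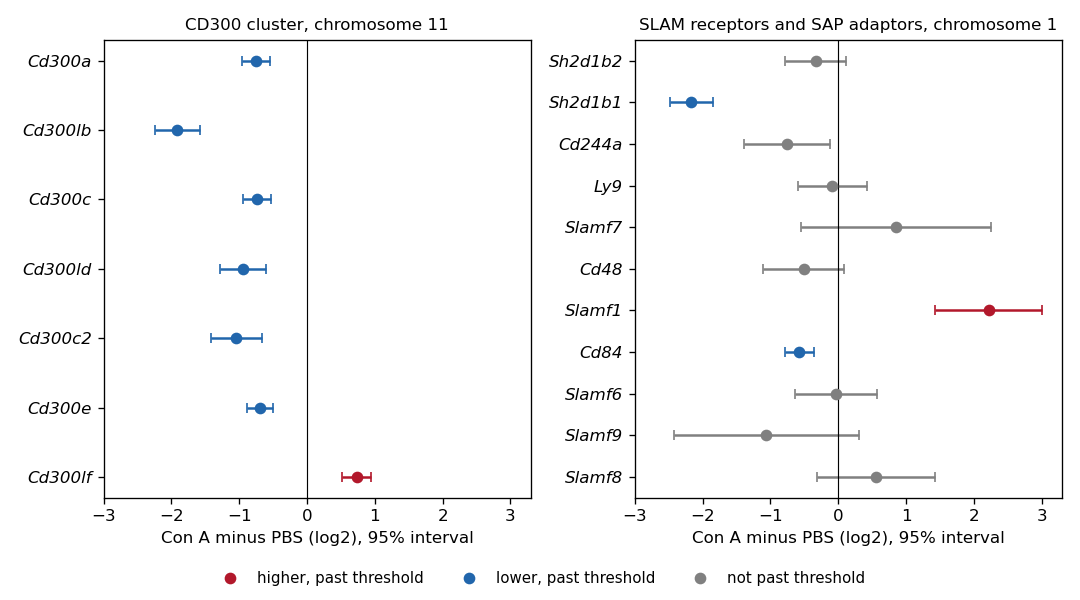
Con A minus PBS difference on the log2 scale, with its 95% interval from the limma fit (n = 3 per group), for the separately measured CD300 genes of the chromosome 11 cluster (left) and the SLAM receptors and SAP adaptors of chromosome 1 (right), each from top to bottom in RefSeq order. In the left panel 6 genes lie below 0 and Cd300lf above it. In the right panel Sh2d1b1 and Cd84 fell, Slamf1 rose, and the other 8 did not pass the threshold.

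Of 9 SLAM receptors measured (3 of the named list and 6 others), Cd84 fell, Slamf1 rose and 7 did not pass the threshold. Over all genes 7.22% fell and 4.59% rose. With the replicate number as a block, 4 of the 9 were lower and 1 was higher. Cd84, a self-binding receptor of many leukocytes, had 11.27, 11.20 and 11.34 on the Con A arrays, against 11.98, 11.85 and 11.70 on the PBS arrays. Its groups did not overlap, and it fell by 0.57 ± 0.09 (SE), or 1.49-fold.

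Slamf7, a self-binding receptor that uses EAT-2 in natural killer cells, had 9.43, 10.05 and 10.70 on the Con A arrays, against 8.464, 8.498 and 10.66 on the PBS arrays. PBS replicate 3 stood level with Con A replicate 3 and above the other Con A arrays, so the groups overlapped. The difference of 0.85 (95% interval -0.55 to 2.26) did not pass the threshold. Without PBS replicate 3 it was 1.58 and passed.

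Cd244a encodes the receptor 2B4, which binds CD48 on neighbouring cells. It had 9.35, 9.61 and 10.12 on the Con A arrays, against 10.55, 9.93 and 10.87 on the PBS arrays. Con A replicate 3 lay above PBS replicate 2, so the groups overlapped, and the difference of -0.76 (95% interval -1.39 to -0.13) did not pass. It passed without PBS replicate 2, at -1.02. Cd48, the gene of its ligand, differed by -0.51 (95% interval -1.10 to 0.09) and did not pass (limma adjusted p = 0.278). Cd244a and Cd48 both passed with the replicate number as a block.

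Slamf1, a self-binding receptor that also recognises bacteria, was the 1 of the 6 other SLAM receptors past the threshold. It had 7.05, 8.33 and 8.43 on the Con A arrays, against 5.88, 5.65 and 5.64 on the PBS arrays, so it lay below the array medians in every PBS array. It rose by 2.22 ± 0.34 (SE, limma adjusted p = 0.0066). No fold is given, because its PBS level is not shown to lie above background. The Con A arrays spread over more than 1 log2 unit, and the lowest of them was level with the array medians.

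Slamf8 and Slamf9, which encode short-tailed receptors of myeloid cells, differed by 0.55 (95% interval -0.32 to 1.42) and -1.06 (-2.42 to 0.30). Ly9 and Slamf6, both self-binding lymphocyte receptors, differed by -0.09 (-0.60 to 0.42) and -0.03 (-0.64 to 0.58). None of the 4 passed (limma adjusted p = 0.427, 0.325, 0.85 and 0.96), and the signs of Ly9 and Slamf6 turned under array weights and without single arrays. Slamf9 passed with the replicate number as a block (limma adjusted p = 0.012).

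Replicate 3 stood high in both groups across the family. Con A replicate 3 was the highest Con A array for 8 of the 9 SLAM receptors, and PBS replicate 3 the highest PBS array for 7, where the same held for 29.4% and 32.8% of all genes. For Slamf7 and Slamf9, PBS replicate 3 lay 2.18 and 2.05 above the mean of the other two PBS arrays. Dendritic cell markers (8 genes) averaged 7.39, 7.60 and 8.04 on Con A arrays 1, 2 and 3, against 7.39, 7.39 and 7.98 on PBS arrays 1, 2 and 3. Among them Cd209a had 11.52 on Con A replicate 3 and 11.13 on PBS replicate 3, against 9.14 to 9.37 on the other four arrays. Cd209a, Ccr7, Bst2 and Zbtb46 were the 4 of the 8 that were highest on replicate 3 in both groups. Xcr1 and Siglech were lowest on Con A replicate 3 among the Con A arrays, and Clec9a was lowest on PBS replicate 3 among the PBS arrays. Xcr1, Clec9a and Flt3 had means of 5.58, 6.86 and 6.80, below the array medians. Natural killer cell markers (10 genes) averaged 7.30 to 8.42 on the Con A arrays and 7.56 to 8.03 on the PBS arrays, lowest on Con A replicate 2. These 10 markers had a median difference of 0.02, with 6 higher and 4 lower. The granzyme gene Gzmb was the 1 called, and it rose by 1.75 (limma adjusted p = 0.0151). That call was lost on leaving out Con A replicate 1 (limma adjusted p = 0.0528) or PBS replicate 1 (limma adjusted p = 0.0737). The part of these cells in the SLAM receptor values was not tested.

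**Figure D3:**
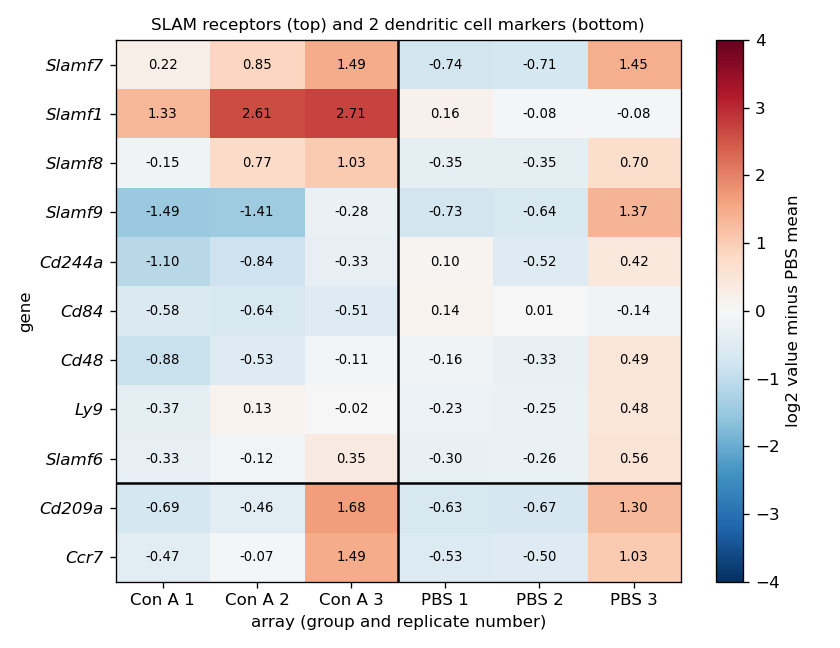
Log2 value minus the PBS mean of the gene on each array (columns, Con A left of PBS), for the 9 SLAM receptors (rows above the line) and the dendritic cell markers Cd209a and Ccr7 (below it), chosen from 8 after their values were seen. Red is above and blue below the PBS mean. Slamf7, Slamf9, Cd209a and Ccr7 are high on PBS replicate 3, while Slamf1 is high on all 3 Con A arrays and on none of the PBS arrays.

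The receptors' signalling partners were measured as well. Of 14 genes of activating adaptors and the ITAM pathway, 2 fell, 1 rose and 11 did not pass, with a median difference of -0.11. Over all genes 7.22% fell and 4.59% rose, with a median difference of 0.02. Pik3cg, a PI3-kinase subunit, fell by 0.77 ± 0.09 (SE, limma adjusted p = 0.00203), the phospholipase gene Plcg2 fell by 0.34 ± 0.08 (SE), and Lcp2, which encodes the scaffold SLP-76, rose by 0.48 ± 0.09 (SE). The adaptor genes themselves, named for their role after values were seen, were not among those called. Tyrobp, which encodes DAP12, differed by -0.16, Fcer1g by -0.07 and Hcst, which encodes DAP10, by -0.01, and none passed (limma adjusted p = 0.201, 0.574 and 0.946). Tyrobp and Fcer1g stood above 13 on every array, close to the upper end of the range, which compresses differences.

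Of 9 phosphatases and effectors of inhibitory receptors, 4 fell, 0 rose and 5 did not pass, with a median difference of -0.25. The shares over all genes were 7.22% lower and 4.59% higher. Inpp5d, which encodes the lipid phosphatase SHIP1, had 11.29, 11.32 and 11.33 on the Con A arrays, against 11.96, 11.89 and 11.91 on the PBS arrays. It fell by 0.61 ± 0.07 (SE, limma adjusted p = 0.00189), and the groups lay far apart for their spread. The docking protein genes Dok3 and Dok1 fell by 0.71 and 0.64, and the kinase gene Csk by 0.34. Ptpn6 and Ptpn11, the genes of SHP-1 and SHP-2 and named for their role after values were seen, differed by 0.05 and 0.08 and did not pass (limma adjusted p = 0.765 and 0.579). In fits with 1 array left out, Csk and Plcg2 lost their calls in 5 of 6 (PBS replicate 3 being the exception), Dok1 in 4 (without Con A replicates 1 and 2 and PBS replicates 1 and 2), Lcp2 in 3 (without Con A replicates 2 and 3 and PBS replicate 2) and Dok3 in 1 (without PBS replicate 1), at limma adjusted p up to 0.141.

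Of 23 other inhibitory and activating myeloid receptors, 4 fell, 2 rose and 17 did not pass, with a median difference of -0.23. Among all genes 7.22% fell and 4.59% rose. Cd200r1, an inhibitory receptor for CD200, fell by 0.97 ± 0.18 (SE, limma adjusted p = 0.0148), and Clec4a2, an inhibitory lectin receptor gene, by 0.92 ± 0.10 (SE, limma adjusted p = 0.0022). Ceacam1, an inhibitory adhesion receptor, fell by 0.60 ± 0.09 (SE). Clec12a, an inhibitory receptor for uric acid crystals, rose by 0.72 ± 0.13 (SE, limma adjusted p = 0.0129), a call lost without Con A replicate 2 (limma adjusted p = 0.0616). Trem2, an activating DAP12 partner, and Siglece, an inhibitory sialic acid receptor, complete the count and were named after their values were seen, at -0.40 and 0.48. Inhibitory receptors stood on both sides in this list, as Cd300a and Cd300lf did among the CD300 genes.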

How the data were processed

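Per the labels' protocols, amplified cDNA of 6 samples carried a biotin label. The authors deposited log2 expression values, and RMA and Partek are named without versions in the submitters' processing notes. RMA compresses differences at the bottom and top of the scale. No genome build is given in the sources used here. Precision is limited by how few arrays there are.

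Of 35556 rows, 21789 had 1 gene symbol in the platform annotation, 1621 had several and 12146 none. The row with the highest mean stood for a gene (999 genes had several rows), which left 19938 genes. The 2 groups were fitted with limma 3.58.1 under R 4.3.3 (lmFit, then eBayes, with two-sided p-values adjusted by Benjamini-Hochberg across every gene and called under 0.05), and the fit was tested on simulated data. In each of 10 simulations, 200 of 19938 genes were given a set difference, over noise drawn independently for each gene and array. The fit recovered 32.5%, 88.5% and 98.3% of set differences of 0.5, 1 and 2 log2 units. On average 4.68% of its calls there were false. In the data 11.8% of genes were called, and genes moved together on single arrays, so these shares need not carry over. Differences are Con A minus PBS. Python 3.11.15 with pandas 2.3.3 served for tables and matplotlib 3.10.9 for plots.

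The listed genes and the lists of related genes and markers were chosen with earlier results of these data known. Of each related list, up to 4 genes with the largest difference past the threshold are named, and lists under 7 genes are given whole. Genes without a value here were not analysed here. Promoters are from RefSeq (GRCm38.p6). Samples with the same replicate number did not deviate together in every pair (r = 0.23, -0.17 and 0.56 for numbers 1, 2 and 3), and the numbers were not taken as pairs in the main fit. These values cannot show that the samples were unpaired. Alternatives were 1 array left out, a replicate block, a filter on dim genes, other priors, centring, quantile normalization, array weights, the mean of rows and the unmoderated test.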

Additional observations from a re-analysis of the deposited data

How the results depend on the processing

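Sh2d1b1, Cd300lb, Cd300a and Cd300lf passed the threshold in all 14 alternatives. Their direction could hardly turn, because their groups do not overlap and several alternatives leave the difference itself unchanged. For genes with 1 row, the mean of rows gives the same values. The listed genes were chosen with this contrast known, so their passes are description. Cd300ld and Cd84 passed in 13 and missed under the unmoderated test. Cd300lg passed in 4 (filter on dim genes, median centring, array weights and without Con A replicate 2) and Slamf7 in 1 (without PBS replicate 3). With 1 array left out, 5 to 6 listed genes fell and 1 to 2 rose, and the unmoderated test called 3 lower. Over all genes, leaving out 1 array gave 682 to 1651 lower and 458 to 1114 higher (1440 and 915 with all arrays), and the unmoderated test 381 and 290.

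With 1 array left out, 3 of 3 other CD300 genes fell in every fit, and of the 9 SLAM receptors 1 fell and 1 rose, except that 2 rose without PBS replicate 3 (Slamf1 and Slamf7) and 2 fell without PBS replicate 2 (Cd84 and Cd244a). The activating list had 1 to 3 lower and 0 to 2 higher, the inhibitory effectors 1 to 4 lower and 0 to 1 higher, and the other receptors 4 to 5 lower and 1 to 2 higher. The unmoderated test gave 2 other CD300 genes and 1 inhibitory effector lower, and it called 0 SLAM receptors in either direction. It gave 0 activating genes and 0 other receptors higher. Pik3cg, Trem2 and Clec4a2 were among those still lower (adjusted p of the unmoderated test = 0.03501, 0.02439 and 0.04635). The filter on dim genes, which removes Slamf1, gave 0 SLAM receptors higher and 4 activating genes lower. Array weights gave 2 activating genes and 1 inhibitory effector higher and 8 other receptors lower. Quantile normalization gave 1 inhibitory effector higher and 7 other receptors lower.

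With the replicate number as a block, 5 listed genes fell and 1 rose, as without it. Under this replicate block 4 of the 9 SLAM receptors were lower (Cd84, Cd244a, Cd48 and Slamf9, of which Cd48 and Slamf9 are the 2 outside the listed genes), against 1 without it. It called 1 inhibitory effector higher, and Csk lost its call (limma adjusted p = 0.0691), which left 3 inhibitory effectors lower.

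Signs turned for small differences. Ly9 was 0.0029, Slamf6 0.11 and Sh2d1a 0.0047 under array weights, and Hcst was 0.032 and Ptpn6 -0.016 under quantile normalization. With 1 array left out, Ly9 ranged from -0.22 to 0.15, Slamf6 from -0.22 to 0.25, Sh2d1a from -0.15 to 0.11, and Hcst from -0.089 to 0.024. The cause of these changes was not tested.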
